A study of Mus musculus with 9 samples.

Results

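Of the 11100 SUZ12 peaks on the 19 autosomes and the sex chromosomes, 4306 (38.8%) overlapped no EZH2 peak by even 1 bp. These SUZ12 peaks without EZH2, chosen by the positions of the peaks called in the SUZ12 and EZH2 lists, are described here and called EZH2-free below, which says only that EZH2 was not called at the same bases. The other 6794 SUZ12 peaks, called EZH2-bearing, served as the comparison. The lists come from ChIPmentation, a form of chromatin immunoprecipitation in which a transposase adds the sequencing adapters, on cells of MYCN-driven T cell lymphomas taken from the thymus of C57BL/6J mice. Cells under this label were profiled for EZH2, SUZ12, H3K27me3, H3K4me3, H3K27ac, the acetyltransferase p300 and the transcription factor N-MYC, with 1 peak list per antibody and 2 input libraries without a list. The labels do not give the age of the mice, the promoter that drives MYCN, or how many tumours went into a library. Every value therefore describes 1 pair of SUZ12 and EZH2 libraries of unknown depth, and no replicate error could be computed. Intervals are 95% intervals on counts that treat peaks as independent.

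EZH2 and SUZ12 are subunits of Polycomb repressive complex 2 (PRC2), which methylates lysine 27 of histone H3. EZH2 carries the catalytic SET domain, and SUZ12 is the scaffold that holds the catalytic core together and binds the accessory subunits. The product, H3K27me3, spreads in domains over silent developmental genes, and PRC2 is known to concentrate at CpG-rich DNA within them. H3K4me3 marks active or poised gene starts, and H3K27ac and p300 mark active starts and enhancers.

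The thymic T-cell label was read from the active marks at gene starts. Of 10 T-lineage genes, 8 carried both H3K4me3 and H3K27ac, among them the CD3 genes, Lck and Tcf7. Cd8a carried H3K27me3 alone, and Ptcra had no peak in any list. None of 3 B-cell genes and none of 3 myeloid genes had both marks, and 1 of 2 thymic epithelial genes (Epcam) did.

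The promoters of 4 genes whose start lay inside an EZH2-free SUZ12 peak more than 5 kb from any EZH2 peak are shown because the CpG content of such starts is compared below. They are the 250 bases upstream of the start on the gene's own strand, from RefSeq on GRCm38.p6, with each CG in capitals. Tal2 encodes a basic helix-loop-helix factor of the T-cell leukaemia family, Osbp2 an oxysterol-binding protein, Tubb3 the neuronal class III beta-tubulin and Prr18 a proline-rich protein.
Tal2 (chr4:53779451-53779700, + strand): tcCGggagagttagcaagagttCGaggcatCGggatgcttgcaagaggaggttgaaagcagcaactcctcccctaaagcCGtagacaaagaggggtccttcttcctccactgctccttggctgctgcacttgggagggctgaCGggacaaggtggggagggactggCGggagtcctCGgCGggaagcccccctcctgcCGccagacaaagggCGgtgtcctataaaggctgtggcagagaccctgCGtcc
Osbp2 (chr11:3863904-3864153, - strand): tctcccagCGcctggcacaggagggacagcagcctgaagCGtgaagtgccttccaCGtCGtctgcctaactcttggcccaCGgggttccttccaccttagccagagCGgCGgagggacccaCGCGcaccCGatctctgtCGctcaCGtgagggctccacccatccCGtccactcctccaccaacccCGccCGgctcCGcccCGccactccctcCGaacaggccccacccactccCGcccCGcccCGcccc
Tubb3 (chr8:123411303-123411552, + strand): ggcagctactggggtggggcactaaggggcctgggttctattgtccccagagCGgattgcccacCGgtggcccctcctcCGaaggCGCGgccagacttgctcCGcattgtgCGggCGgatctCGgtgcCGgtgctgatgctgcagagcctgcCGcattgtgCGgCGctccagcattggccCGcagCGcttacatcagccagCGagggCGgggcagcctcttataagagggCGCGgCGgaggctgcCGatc
Prr18 (chr17:8340489-8340738, + strand): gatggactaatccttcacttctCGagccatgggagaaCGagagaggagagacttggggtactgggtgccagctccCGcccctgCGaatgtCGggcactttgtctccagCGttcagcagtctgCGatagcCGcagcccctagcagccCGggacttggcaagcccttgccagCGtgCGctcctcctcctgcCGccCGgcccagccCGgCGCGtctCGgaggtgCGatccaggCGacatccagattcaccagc
For comparison, Sp9 and Lhx9, which encode a zinc-finger and a LIM-homeobox factor, had the EZH2-bearing SUZ12 peaks of highest fold enrichment over a start.
Sp9 (chr2:73271676-73271925, + strand): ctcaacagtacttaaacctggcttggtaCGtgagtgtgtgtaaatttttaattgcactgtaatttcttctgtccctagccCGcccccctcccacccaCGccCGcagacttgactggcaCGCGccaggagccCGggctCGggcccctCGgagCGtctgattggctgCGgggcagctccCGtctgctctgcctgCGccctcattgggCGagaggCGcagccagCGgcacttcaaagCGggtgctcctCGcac
Lhx9 (chr1:138842445-138842694, - strand): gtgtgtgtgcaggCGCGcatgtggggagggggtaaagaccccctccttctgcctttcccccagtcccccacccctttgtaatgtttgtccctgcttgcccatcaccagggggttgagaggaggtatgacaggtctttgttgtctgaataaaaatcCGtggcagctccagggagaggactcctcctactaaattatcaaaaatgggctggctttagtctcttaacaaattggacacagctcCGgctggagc
The printed stretches held 11 CG pairs at Tal2, 21 at Osbp2, 21 at Tubb3 and 19 at Prr18, against 18 at Sp9 and 4 at Lhx9. Prr18 has another start in the same peak, not printed, whose 300-base window held 6 CG pairs, against 24 in the window of the printed start, and lay on H3K4me3. The SUZ12 peaks that held these starts had fold enrichments of 5.47, 4.53, 4.48 and 4.41 in the EZH2-free set, and 21.2 and 19.9 for Sp9 and Lhx9. Each is a value for the whole peak, not for the start itself. These 6 starts overlap in CG number, and Lhx9, the poorest, was EZH2-bearing.

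Most EZH2-free SUZ12 peaks were small peaks close to an EZH2 peak. Their median width was 293 bp (quartiles 233 to 396 bp, widest 2578 bp), against 858 bp for EZH2-bearing peaks. The median SUZ12 fold enrichment over background, a ratio given by the authors' peak caller, was 3.62 (quartiles 3.38 to 3.99, highest 7.93), against 4.54. Because a narrow peak has fewer bases on which to meet EZH2, width and height follow in part from the choice of peaks and are given as a description only. At the border of the rule, 33 EZH2-free peaks lay 10 bp or less from an EZH2 peak, with a median fold enrichment of 3.72. The 45 SUZ12 peaks that overlapped EZH2 by 10 bp or less had a median of 3.71.

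The median edge-to-edge distance to the nearest EZH2 peak was 616.5 bp (quartiles 256 to 1522 bp). It was within 500 bp for 1852 of the 4306, within 1 kb for 2807, within 2 kb for 3381 and within 5 kb for 3651 (84.8%). Joining SUZ12 peaks within 3 kb of each other before the comparison left 716 EZH2-free sites (16.8%), of which 31.0% lay within 5 kb of EZH2, and extending EZH2 peaks by 1 kb left 13.5% of SUZ12 peaks EZH2-free. Of the 4306, 655 (15.2%) lay farther than 5 kb from EZH2, 266 of these farther than 50 kb. Ctnnd2, which encodes delta-catenin, had 1 of the 3 peaks at the smallest distance, 1 bp. At the other extreme, peaks at Ptchd1, a patched-domain receptor gene, Lingo2, a neuronal leucine-rich repeat gene, and Adcyap1, the gene of the neuropeptide PACAP, lay 1868.5, 1725.5 and 1546.8 kb away. Adcyap1 had a further EZH2-free peak beside it at 1546.0 kb.

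**Figure D1:**
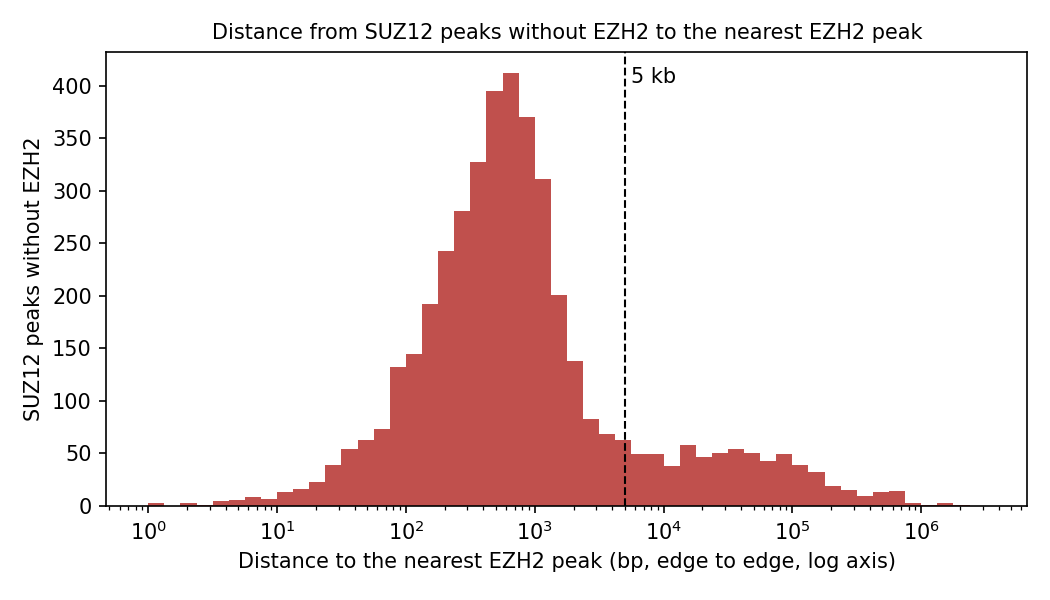
Histogram of the 4306 SUZ12 peaks without EZH2 by their distance to the nearest EZH2 peak (x axis, bp, log scale; y axis, number of peaks per bin). Most peaks sit in a mode near the median of 616.5 bp, and 655 form a broad shoulder to the right of the dashed line at 5 kb.

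Around the nearby EZH2 peaks, SUZ12 was usually called again. Of the 3651 EZH2-free peaks within 5 kb of EZH2, 2995 (82.0%) had as nearest EZH2 peak one that overlapped another SUZ12 peak, and 3587 (98.2%) one on H3K27me3. The same shares over all 18730 EZH2 peaks are not given here, so whether these EZH2 peaks differ from the rest was not tested. An EZH2-bearing SUZ12 peak lay within 5 kb of 3382 of all 4306 (78.5%). Several EZH2-free peaks could flank the same site: 819 of the 3136 EZH2 peaks that were nearest to any of them were nearest to 2 or more. Of the EZH2-free peaks within 5 kb of EZH2, 1624 had a summit within 5 kb of a gene start. The summit of the nearest EZH2 peak was the closer to that start in 1299 of these 1624 cases (79.99%). An EZH2 peak over a start keeps EZH2-free peaks off it, so this share follows in part from the rule.

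Nearly all EZH2-free SUZ12 peaks were on H3K27me3. H3K27me3 overlapped 4230 of 4306 (98.2%, 97.8 to 98.6), where 98.6% of all SUZ12 peaks did and 98.8% of EZH2-bearing ones. The difference was -0.57 percentage points (-1.07 to -0.12), and among peaks 200 to 500 bp wide it had the opposite sign, 1.42 points (0.61 to 2.33). The median fold enrichment of the overlapping H3K27me3 peak was 12.3 (quartiles 9.39 to 15.7) against 13.2 (10.3 to 16.4), so the quartiles of the groups largely overlapped. Distance to EZH2 separated the values more: medians ran from 12.3 to 13.6 in the 4 classes up to 5 kb, and were 9.24 at 5 to 50 kb and 9.59 beyond 50 kb.

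H3K27me3 peaks at most 3 kb apart were joined into domains, of which there were 24143 with a median width of 2.92 kb. EZH2-free SUZ12 peaks lay in 2286 domains with a median width of 16.3 kb. EZH2 was also called in 1949 of these domains (85.3%, median width 18.1 kb) and in none of the other 337 (8.59 kb). Over all 24143 domains, 3541 (14.7%) held EZH2. Of the 3567 domains with a SUZ12 peak of either kind, 340 (9.53%) held no EZH2. Counted by peak, 3799 (88.2%, 87.2 to 89.2) lay in a domain that held EZH2, against 95% of all SUZ12 peaks, a share that the rule itself raises for EZH2-bearing peaks. Of those beyond 5 kb from EZH2, 211 of 655 (32.2%) still shared a domain with EZH2.

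Ranked by the number of these peaks, with no allowance for domain width, homeobox clusters came first. The narrower H2-T3 and Srcin1 domains named below held more of them per kb. The Hoxc domain (288.8 kb, Hoxc4 to Hoxc13) held 23 EZH2-free and 26 EZH2-bearing SUZ12 peaks, and the Hoxb domain (244.5 kb, Hoxb3 to Hoxb13 with Ttll6 and Calcoco2) held 22 and 19. A domain of 105.9 kb at Gm10499, Gm8909 and H2-T3 also held 22 and 21, but this histocompatibility region is repetitive and its read placement is uncertain. Next came Srcin1, a Src kinase inhibitor gene (104.5 kb, 17 and 12), and Pax2, a paired-box kidney and brain factor (278.4 kb, 15 and 14). Within domains of at least 5 kb, 25.1% of EZH2-free summits (23.8 to 26.5) lay in the zone around the midpoint, from 0.4 of the width to the middle, and 10.4% (9.51 to 11.4) in the outer zone, within 0.1 of the width of either edge. The EZH2-bearing summits lay in the middle zone in 31.3% (30.1 to 32.4) and in the outer zone in 7.24% (6.63 to 7.90).

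EZH2-free summits lay at gene starts less often than EZH2-bearing ones. On the chromosomes with known starts, 499 of 4181 EZH2-free summits (11.9%, 10.99 to 12.95) lay within 1 kb of a start, where 23.9% of all SUZ12 summits did. Among EZH2-bearing summits it was 2079 of 6603 (31.5%), a difference of -19.6 points (-21.0 to -18.0). The order turned at 1 to 5 kb from a start, with 31.2% (29.8 to 32.6) against 22.1% (21.1 to 23.1), where 25.6% of all SUZ12 summits lay. The difference at starts stayed among peaks 200 to 500 bp wide, at 11.8% against 24.7%, although it was smaller (-12.95 points, -15.1 to -10.9). Over the 716 joined sites 24.4% of summits lay within 1 kb of a start, and the difference from joined EZH2-bearing sites was -18.6 points (-22.1 to -14.9). Starts were known for 79.9% of genes and for none on chromosome 18, so summits near an unlisted start were counted as farther away, and chromosome 18 was left out.

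Peaks near EZH2 and peaks far from it were placed differently. Of those within 5 kb of EZH2, 355 of 3550 (10%) lay within 1 kb of a start and 35.7% at 1 to 5 kb. Beyond 5 kb, 144 of 631 (22.8%) lay within 1 kb and 5.39% at 1 to 5 kb, and the difference at 1 kb was 12.8 points (9.55 to 16.4). By class of distance, the share within 1 kb of a start fell from 14.1% (under 0.5 kb) through 6.87 and 4.85 to 4.10% (2 to 5 kb), and was 14.6% at 5 to 50 kb and 35.5% (29.8 to 41.6) beyond 50 kb. An EZH2 peak that covers a start keeps the EZH2-free peaks beside it off that start, so the low shares near EZH2 follow in part from the rule.

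**Figure D2:**
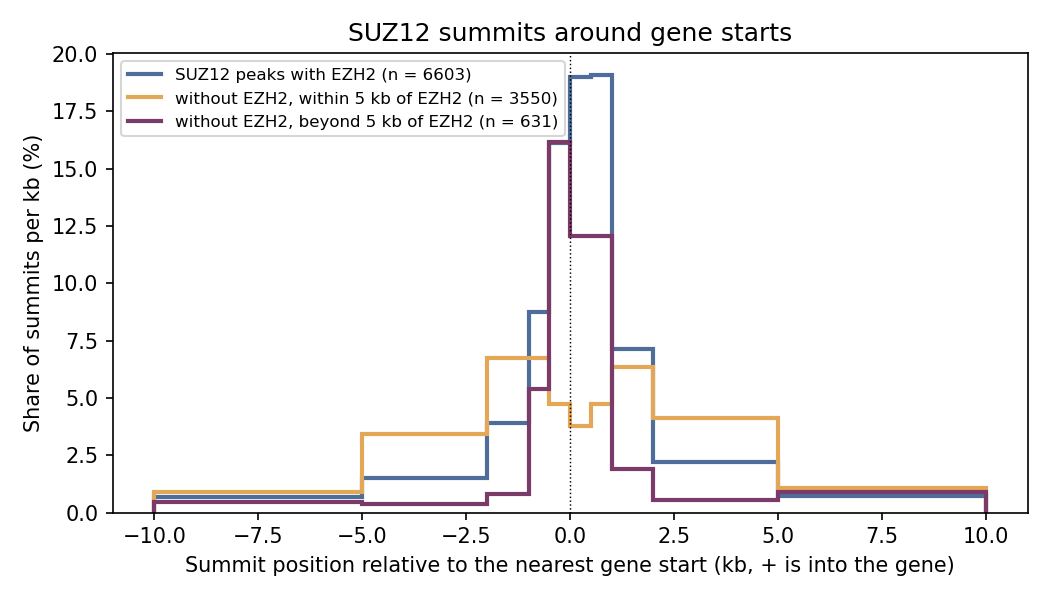
Share of SUZ12 summits per kb (y axis, %) by position relative to the nearest gene start (x axis, kb, positive into the gene), for 6603 EZH2-bearing peaks, 3550 EZH2-free peaks within 5 kb of EZH2 and 631 beyond. In the first 0.5 kb downstream the values are 18.99, 3.77 and 12.04% per kb.

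**Figure D3:**
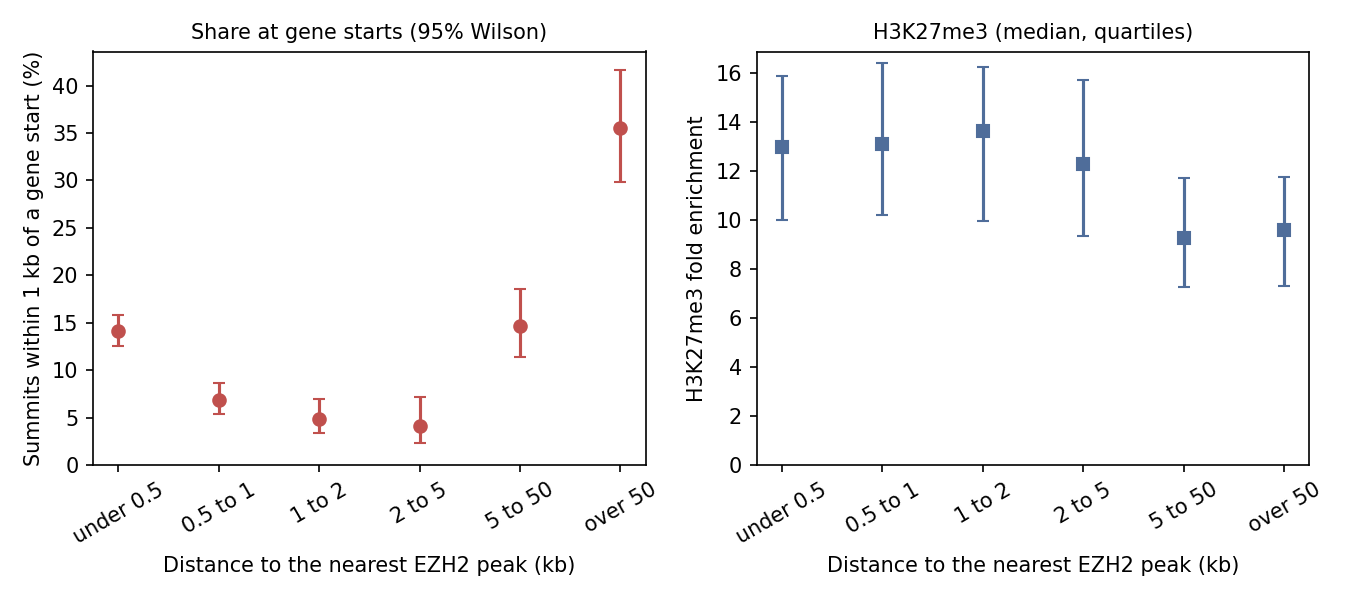
Left, share of EZH2-free SUZ12 summits within 1 kb of a gene start (points, 95% Wilson intervals) by distance to EZH2. Right, median fold enrichment of the overlapping H3K27me3 peak (squares, bars from quartile to quartile). The start share is lowest at 2 to 5 kb (4.10%) and highest beyond 50 kb (35.5%), while H3K27me3 is lower beyond 5 kb.

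The isolated peaks at gene starts, more than 5 kb from EZH2 and with a summit within 1 kb of a start, belonged to genes of varied function. The 8 of highest SUZ12 fold enrichment, chosen after the values were seen, were at Tal2, Prom2, Rgs17, Arhgap44, Calcr, Gm21814, Syne1 and Osbp2. Tal2 had the widest of them (chr4:53779170-53780839, 1670 bp), at a SUZ12 fold enrichment of 5.47, 64.5 kb from EZH2 and in an H3K27me3 domain of 15.8 kb with a fold enrichment of 13.9. Prom2, a prominin membrane glycoprotein gene, reached 5.05 at 44.8 kb from EZH2. Rgs17, a regulator of G-protein signalling, reached 4.87 at 97.7 kb. Calcr, the calcitonin receptor gene, reached 4.73 at 564.0 kb. All 8 overlapped H3K27me3 and none of the 4 active lists (H3K4me3, H3K27ac, p300 and N-MYC). Over all 144 isolated peaks at starts, 117 (81.2%, 74.1 to 86.8) had that pattern, against 83.5% of all SUZ12 peaks. Another 19 of the 144 (13.2%, 8.61 to 19.7) were on H3K4me3, against 14.3% of all SUZ12 peaks. These are unlike sets, because only 23.9% of all SUZ12 summits lay within 1 kb of a start. A comparison with other SUZ12 peaks at starts is not given here. Prr18 (H3K4me3 6.30), Acyp2 (11.7) and Mmp11 (3.32) were among those 19.

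The CpG content of the starts also differed. Among the 300-base windows around known starts (250 bases before, 50 after), 75 windows of 69 genes had their start inside an EZH2-free SUZ12 peak and 1833 inside an EZH2-bearing one. The median number of CG pairs was 13 (quartiles 8 to 21) against 22 (15 to 32), and was 13 over all 21262 windows. A ratio of observed to expected CpG of 0.6 or more was reached by 31 of 75 (41.3%, 30.9 to 52.6), against 72.2% of EZH2-bearing windows, 71% of all windows under SUZ12 and 47.7% of all windows. The difference from EZH2-bearing windows was -30.8 points (-41.5 to -19.4), and among SUZ12 peaks 200 to 500 bp wide it was -41.2 points (-55.1 to -24.3). The 37 windows under peaks beyond 5 kb from EZH2 also had a median of 13 and a share of 43.2%. The letters CACGTG, the E-box bound by MYC-family proteins, read on both strands at once since the motif is its own reverse complement, stood in 9 of 75 (12%, 6.44 to 21.3) against 6.76% of all windows under SUZ12 and 7.84% of all windows. Its difference from EZH2-bearing windows, 5.45 points, had an interval from -0.24 to 14.8, and among peaks 200 to 500 bp wide the difference was -0.87 points (-10.7 to 11.5).

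**Figure D4:**
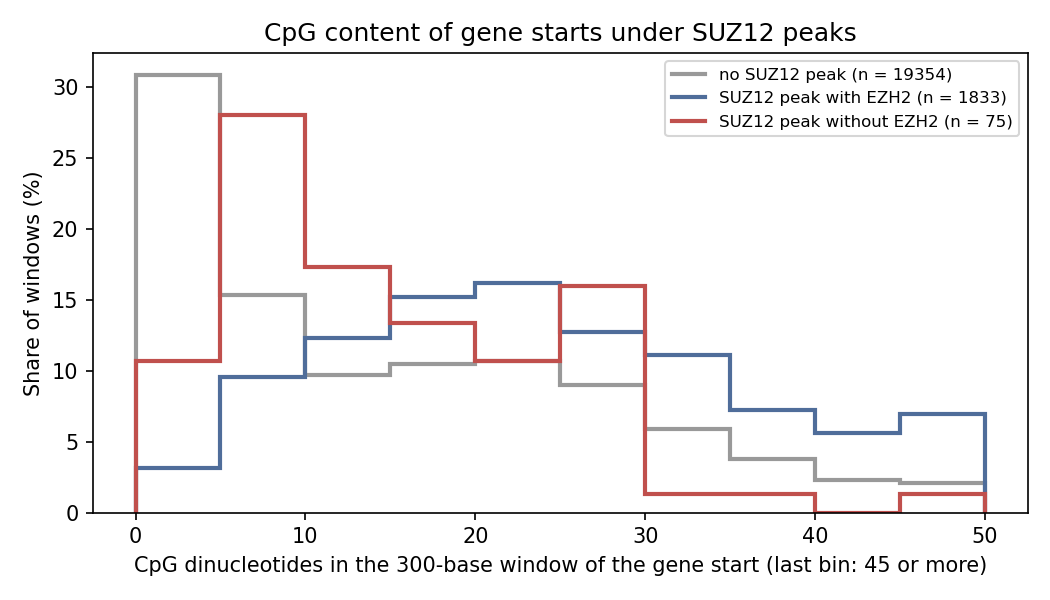
Share of 300-base windows (y axis, %) by number of CG pairs (x axis, bins of 5) for starts inside an EZH2-free SUZ12 peak (75 windows), inside an EZH2-bearing one (1833) and in no SUZ12 peak (19354). The EZH2-free windows peak at 5 to 9 pairs (28.0%), and the EZH2-bearing ones at 20 to 24 (16.2%).

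Active marks were rare on EZH2-free SUZ12 peaks. H3K4me3 overlapped 182 (4.23%, 3.67 to 4.87), where 14.3% of all SUZ12 peaks and 20.6% of EZH2-bearing ones did, a difference of -16.4 points (-17.5 to -15.3). H3K27ac overlapped 150 (3.48%, 2.98 to 4.07; background 7.87%), against 10.7%. p300 overlapped 40 (0.929%; background 2.33%), against 3.22%. N-MYC overlapped 31 (0.720%; background 2.77%), against 4.08%. For each of the 4 lists the interval of the difference from EZH2-bearing peaks lay below 0, also among peaks 200 to 500 bp wide, where H3K4me3 stood at 3.87% against 14.8% (-10.9 points, -12.6 to -9.37). Over the 716 joined sites the shares were higher, at 9.50% for H3K4me3, 7.96% for H3K27ac, 2.79% for p300 and 2.23% for N-MYC. H3K27me3 with none of the 4 was found on 4008 (93.1%), where 83.5% of all SUZ12 peaks and 77.4% of EZH2-bearing peaks had it. Both H3K4me3 and H3K27me3, the pattern known as bivalent, were on 151 (3.51%) against 19.6%, with 13.3% over all SUZ12 peaks.

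**Figure D5:**
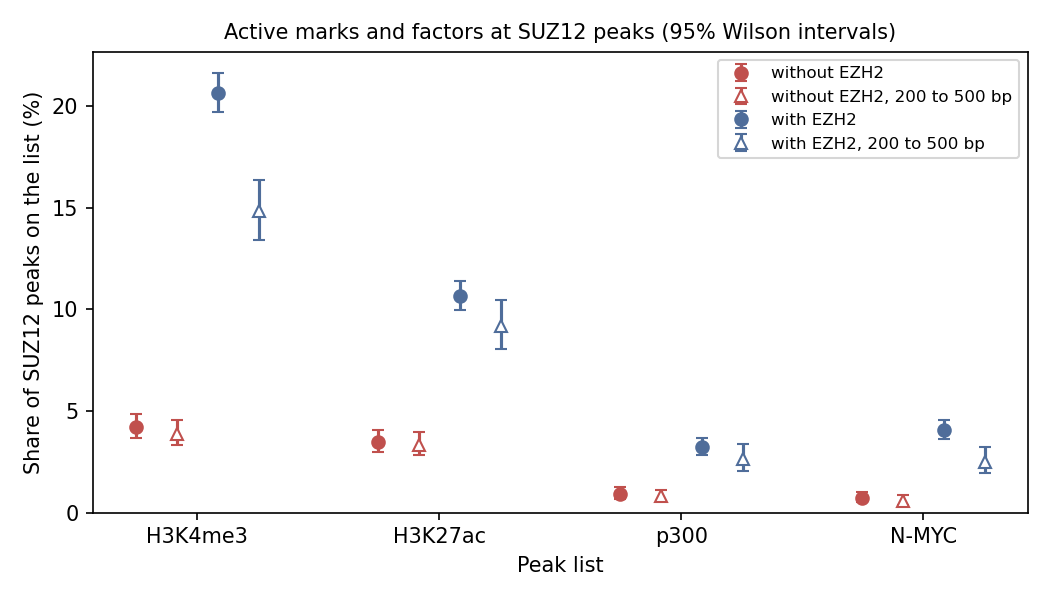
Share of SUZ12 peaks on each list of active marks or factors (y axis, %), for EZH2-free (red) and EZH2-bearing (blue) peaks, over all widths (circles) and from 200 to 500 bp (triangles), with 95% Wilson intervals. For H3K4me3 the EZH2-free values of 4.23 and 3.87% lie below the EZH2-bearing values of 20.6 and 14.8%.

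Distance from EZH2 made a smaller difference to active marks. H3K4me3 was on 3.89% of EZH2-free peaks within 5 kb of EZH2 and on 6.11% beyond (2.22 points, 0.49 to 4.40), and H3K27ac on 3.07% and 5.80% (2.73 points, 1.07 to 4.86). N-MYC was on 0.548% and 1.68% (1.13 points, 0.34 to 2.45), and p300 on 0.904% and 1.07% (0.16 points, -0.49 to 1.32). Read at the summit alone, the interval of the H3K4me3 difference ran from -0.42 to 2.88 points, that of H3K27ac from 0.35 to 3.60 and that of N-MYC from 0.17 to 1.90.

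The tallest EZH2-free SUZ12 peaks were of different kinds. The highest lay in Hspa8, the gene of the constitutive heat-shock chaperone HSC70 and host of the Snord14 small nucleolar RNAs (chr9:40803227-40803891). Its SUZ12 fold enrichment was 7.93, it overlapped H3K4me3 (41.8), H3K27ac (37.1) and p300 (10.2), and it had no H3K27me3. A peak over the long noncoding RNA gene Malat1 (6.70) likewise had H3K4me3 (18.7), H3K27ac (27.7) and p300 (9.25) without H3K27me3. Snd1, which encodes a nuclease-domain coactivator, had in its body a peak of 6.45 with both H3K27me3 (6.60) and H3K4me3 (6.30). The known start nearest to the summit of that peak was that of another gene, Lrrc4, 1256 bp away. Ncan, the gene of the brain proteoglycan neurocan, had 6.20 on H3K27me3 alone (7.80), and Ube2q2, a ubiquitin-conjugating enzyme gene, also 6.20 (H3K27me3 8.11). The H3K27me3 domain was 45.1 kb wide at the Ncan peak and only 0.379 kb at the Ube2q2 peak. The other peaks among the 10 highest were at Sox21 (5.73), a SOX factor, Hand1 (5.71), a heart and trophoblast basic helix-loop-helix factor, Slc14a2 (5.71), a urea transporter, Prkg1 (5.71), a cGMP-dependent kinase, and a site with no gene within 5 kb (5.83). Hand1 combined H3K27me3 (4.44), H3K4me3 (3.23), H3K27ac (7.97) and N-MYC (4.66).

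Only 76 EZH2-free peaks were off H3K27me3. H3K4me3 was on 31 of them and H3K27ac on 31, with p300 on 18 and N-MYC on 6. Over all 157 SUZ12 peaks off H3K27me3 the shares were 65.6, 60.5, 36.9 and 28.7%. The genes Hspa8, Hsp90aa1 and Malat1, chosen after their values were seen, held 9 of the 76, namely 6 nearest Hspa8, 2 at Hsp90aa1, the gene of the inducible chaperone HSP90 alpha, and 1 over Malat1. All 9 had H3K27ac and p300, so p300 was on 9 of the other 67 (13.4%, 7.23 to 23.6). The Hsp90aa1 pair included the widest EZH2-free peak (2578 bp, SUZ12 5.67), and EZH2 lay 0.458 and 1.344 kb from the pair. Ablim1, an actin-binding LIM protein gene, was the tallest of the 76 with no other list (5.65), and 37 of the 76 had none.

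By gene, the EZH2-free peaks largely fell where EZH2-bearing ones did. A gene was counted when a peak lay in its body or within 5 kb. EZH2-free peaks reached 2291 of 21883 protein-coding genes (10.5%), and EZH2-bearing SUZ12 peaks reached 3407 (15.6%). Both kinds were at 1903 genes, which is 83.1% of the 2291. The median length was 31.5 kb for genes with an EZH2-free peak and 30.9 kb for genes with an EZH2-bearing one, against 17.2 kb over all genes. Srcin1 had the most EZH2-free peaks (16, with 12 EZH2-bearing), followed by Nrxn2, the neurexin-2 gene (14, with 4), Ttll6, a tubulin-ligase-like gene, and Hoxb3 (10 and 7 each), and Itsn1, the intersectin-1 gene (9, with 4).

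Of these 2291 genes, 208 (9.08%, or 0.951% of all genes) had no EZH2 peak of any kind. Tal2 led them by SUZ12 fold enrichment. Slc8a2, a brain sodium-calcium exchanger gene, and its neighbour Kptn shared peaks of up to 5.28. Kcnq1, the potassium channel gene of an imprinted cluster, had 2 peaks up to 4.85, the taller 36.4 kb from EZH2. Inhba, which encodes the activin A subunit, Chga, which encodes chromogranin A, and Rxrg, the retinoid X receptor gamma gene, each reached 4.36.

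The lists of developmental transcription factors had shares above the 10.5% of all genes. Of 39 Hox genes 14 had an EZH2-free peak and 37 an EZH2-bearing one, and of 107 other homeobox genes 54 and 91 did. In the Hox list, Hoxb3 had a peak of 4.48, 307 bp from EZH2. Dlx3 (5.34), Barhl1 (5.10), Lhx9 (4.85) and Irx4 (4.61) led the other homeobox genes, all 139 to 304 bp from EZH2. Forkhead genes were reached in 11 of 44 (26 EZH2-bearing), with Foxe3 (5.34), a lens factor, and Foxf2 (4.73) the highest. SOX and T-box genes were reached in 12 of 35 (25), led by Sox21 and then Eomes and Tbx5 (4.85 each). A list of 68 GATA, KLF and basic helix-loop-helix genes, which does not hold Hand1, had 27 reached (44), led by Twist1 (5.59), then Hey1, Tcf21 and Tal2 (5.47 each), of which only Tal2 had no EZH2 peak.

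The signalling and neuronal lists also had shares above 10.5%. Wnt, BMP, FGF and hedgehog ligands and receptors counted 42 of 81 (61 EZH2-bearing), with Bmp6, Fgf20, Fgfr1 and Wnt8b at 4.36 each. Potassium, sodium and calcium channel genes counted 49 of 120 (62), and 5 of them had no EZH2 peak. Kcnd2 (4.73) followed Kcnq1 there. Neurotransmitter receptor genes counted 26 of 89 (37), with the nicotinic subunits Chrna3 and Chrnb4 sharing a peak of 4.73. Guidance genes (semaphorins, ephrins, netrins, slits and receptors) counted 33 of 71 (41), led by Slit1 (5.33). Cadherins counted 16 of 94 (35), led by Celsr3 (4.97), an atypical cadherin, whose peak also had p300. Collagens and matrix genes counted 23 of 105 (36). Col24a1 among them had EZH2-free peaks and no EZH2-bearing SUZ12 peak, with its tallest (4.30) at 247520 bp from EZH2. An EZH2 peak did lie elsewhere in the Col24a1 body or within 5 kb of it. The median gene length was 42.6 kb in the channel list, 54.4 kb among neurotransmitter receptors and 94.4 kb among cadherins, against 17.2 kb over all genes, and the part of length in these shares was not tested.

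The immune lists had shares whose intervals all included the 10.5% of all genes. Interleukin and chemokine genes counted 9 of 140 (6.43%, 3.42 to 11.8), with Ccl21b (4.99), a copy-rich chemokine gene whose reads are uncertain, and Cxcl2 (4.48) the highest. T-lineage genes counted 4 of 34 (11.8%, 4.67 to 26.6). They were Rag2 (3.99), the recombinase subunit, Lef1 (3.87), Runx3 (3.72) and Bcl11b (3.62). The Bcl11b peak lay on strong H3K4me3 (41.8) with H3K27ac (6.58), N-MYC (4.46) and weak H3K27me3 (4.69). Rag2 had 2 EZH2-free peaks and no EZH2-bearing SUZ12 peak, with EZH2 4.28 kb from the taller. Of 25 B-lineage and myeloid genes, 2 were reached (8%, 2.22 to 24.97): Pax5, with 7 EZH2-free peaks up to 4.21, and Cebpd (3.87).

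The Polycomb list had a share near the 10.5% of all genes. Of 32 PRC2 and PRC1 genes 3 had an EZH2-free peak (9.38%, 3.24 to 24.2), among them Epop (3.68), an elongin-binding PRC2 partner, and Cbx2 (3.26), a PRC1 subunit gene. The peaks at Epop and Cbx2 were on H3K27me3 (15.0 and 9.80). Of 7 CDK inhibitor genes 3 were reached (42.9%, 15.8 to 74.95, against 10.5% of all genes), namely Cdkn2a (3 peaks, up to 4.07), Cdkn2b (3.50) and Cdkn1c (3.32), all on H3K27me3 (15.2, 11.1 and 10.1) and 308 to 686 bp from EZH2.

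The share of SUZ12 peaks without EZH2 differed between chromosomes. It ran from 30.3% (26.1 to 34.9) on chromosome 10 to 43.4% (40.1 to 46.8) on chromosome 5, and was 32.8% (25.2 to 41.4) on X.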

How the data were processed

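For each of 7 antibodies, 1 peak list in narrowPeak layout, without a header, was used. The submitters' processing notes name FastQC, Bowtie2, SAMtools, MACS2, deepTools and the build mm10 (GRCm38). Which settings were used, and whether the input served as control or libraries were pooled, is not given in the sources used here. The fold enrichment is a linear ratio, as deposited by the authors. The deposited −log10 p and −log10 q values served to find the list's end, at a q-value of about 0.01, and for a stricter alternative. The deposited whole-number score was not used. A missing peak means no call, not absence.

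Peaks on the 21 chromosomes were compared by overlap of at least 1 bp, with repeated lines counted once. H3K27me3 peaks within 3 kb were joined into domains. Genes came from RefSeq on GRCm38.p6 (21883 protein-coding genes), of which 17491 had a start in the table (21262 starts); 125 EZH2-free peaks on chromosome 18 left the start shares for that reason. The fit of the annotation was checked with H3K4me3: 51.4% of summits lay within 1 kb of a start, and 3.55% when starts were shifted by 20 kb. Shares have Wilson intervals and differences Newcombe intervals, both at 95%. No p-value was computed, as 1 library per antibody leaves no replicate. The code (Python 3.11.15, pandas 2.3.3, numpy 2.4.6, scipy 1.17.1) was tested on simulated data.

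The peaks, gene lists and comparisons were chosen with earlier results of these data known. Named were the protein-coding genes nearest a summit, within 5 kb, of the 10 highest and 5 widest EZH2-free peaks, of the 5 nearest to and 5 farthest from EZH2, of the 5 highest in each class of active marks and off H3K27me3, the 5 genes with most such peaks, the 4 highest of each of 16 gene lists, and the cell type markers. Some genes that the rule allows are not reported here. Malat1, the further Hspa8 and Hsp90aa1 peaks, the isolated starts, the genes without EZH2 and the domains with most peaks were added after their values were seen.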

Additional observations from a re-analysis of the deposited data

How the results depend on the processing

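Over 12 results, 67 alternative values were computed: 19 moved by less than the counting interval, 48 by more. The 2 differences among them kept their sign, and the other 10 are shares or a distance, which have none. Outside the 12, the H3K27me3 difference (-0.57 points) became 1.42 and the CACGTG difference (5.45 points) -0.87 at widths of 200 to 500 bp. No paired analysis was possible because each antibody had 1 list and no p-value was computed. Without replicates, none could be left out. Depth is unknown, and whether EZH2 fell just short of its threshold at these peaks was not tested.

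Requiring an overlap of 50% of the shorter peak left 47.5% of SUZ12 peaks EZH2-free, at a median distance of 431.5 bp, with 87.6% within 5 kb of EZH2, 97.4% on H3K27me3, 90.02% in domains with EZH2 and 13.8% at starts. Extending EZH2 peaks by 1 kb left 13.5%, at 3560 bp, with 56.3% within 5 kb, 97.7% on H3K27me3, 68.6% in domains with EZH2, 3.60% on H3K4me3, 4.20% on H3K27ac and 1.20% on N-MYC, and differences of -12.3 (H3K4me3) and -13.2 points (starts). With lists cut at a q-value of 1e-05 the share was 35.3%, at 782.5 bp, with 77.0% within 5 kb, 98.7% on H3K27me3, 81.4% in domains with EZH2, 5.61% on H3K4me3, 0.649% on p300 and 14.6% at starts. Merging SUZ12 peaks within 3 kb left 716 EZH2-free sites (16.8%), at 14436 bp, with 31.0% within 5 kb, 96.5% on H3K27me3, 49.9% in domains with EZH2, 9.50% on H3K4me3, 7.96% on H3K27ac, 2.79% on p300, 2.23% on N-MYC, 24.4% at starts and an H3K4me3 difference of -23.0 points. Joining H3K27me3 over 1 or 10 kb put 86.6 or 89.99% in domains with EZH2. A window of 5 kb around starts gave 43.1% and a difference of -10.5 points. The cause of these changes was not tested.

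The remaining alternatives were chosen after seeing the data. At widths of 200 to 500 bp the differences were -10.9 (H3K4me3) and -12.95 points (starts). Read at the summit, 97.4% were on H3K27me3, 3.27% on H3K4me3, 2.65% on H3K27ac, 0.650% on p300 and 0.418% on N-MYC, with an H3K4me3 difference of -10.9 points. Either gene end in place of the start gave 17.2%.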

Other observations

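SUZ12 peaks without EZH2 overlapped 3 microRNA hairpins, and EZH2-bearing SUZ12 peaks, which were wider and more numerous, overlapped 32. The number of all annotated hairpins is not given here, so whether either count is high or low was not tested. The 3 were Mir341 and Mir1188, under a peak with a SUZ12 fold enrichment of 3.50, and Mir6392, under a peak of 3.72. Mir341 and Mir1188 lie on chromosome 12 under the same peak (chr12:109611531-109611923).

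Among EZH2-free peaks off H3K27me3, 12 lay within 1 kb of a known start and on H3K4me3. They included Slc49a4 (H3K4me3 fold enrichment 25.3), Ppp1r18 (20.3), Myo5a (16.8) and Efnb2, an ephrin ligand gene (13.02), and their SUZ12 fold enrichments ran from 3.19 to 3.87. Of these, Myo5a, which encodes a myosin motor, also had N-MYC (12.4), H3K27ac (10.5) and p300 (4.40), and its SUZ12 peak lay 20 bp from EZH2. At Acyp2 the nearest EZH2 peak was 104.2 kb away, and the start carried H3K4me3 (11.7) and H3K27ac (17.4). These genes were chosen after their values were seen.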
